A study of Mus musculus with 4 samples.

Results

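The 46 genes described here act in mitotic entry, the spindle checkpoint, chromosome segregation and cytokinesis. They were taken by symbol from a list made with earlier results of these data known. All 46 were found among the 50600 genes of the deposited table, each on 1 row. The cells were Py8119, a C57BL/6 mouse mammary tumour line that is labelled mesenchymal-like and was grown in IMDM with fetal bovine serum without treatment. The 2 groups were a control, titled hygro and given the genotype control, and cells overexpressing Mtss1, a gene for an actin- and membrane-binding scaffold, with 2 libraries each. The labels name neither the promoter that drove Mtss1 nor whether each population was a clone or a pool, and they do not tell whether same-group libraries were separate cultures, so p-values here cover the spread between libraries alone, and that spread may be technical.

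Entry into mitosis is driven by cyclin-dependent kinase 1 bound to cyclin A or B, switched on by CDC25 phosphatases and assisted by Polo-like and Aurora kinases. Chromosomes are compacted by condensin and captured at their kinetochores by spindle microtubules, and the spindle checkpoint holds back the anaphase-promoting complex (APC/C), a ubiquitin ligase, until all are attached. The ligase then destroys securin and cyclin B, sister chromatids part, and the spindle midzone places the cleavage furrow. Most of these genes are transcribed late in the cycle, under the MuvB complex with the transcription factors B-Myb and FoxM1, and their summed RNA is widely used as a sign of proliferation in mammary tumours.

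Expression is given as CPM, counts per 1000000 reads, and the steps in the values gave 20617788 and 22081639 reads in the control libraries against 15594209 and 16656638 with overexpression. The mitochondrial share of reads was 1.62% and 1.58% in control against 1.11% and 1.20% with overexpression. Mtss1 itself was at 54.5 and 50.5 CPM in the control libraries, against 118 and 119 CPM with overexpression, in the direction of the labels. All 6 mesenchymal markers were present in every library. Vim read 4010 to 4302 CPM and Snai2 39.1 to 42.3 CPM. Fn1 read 10026 and 9858 CPM in control against 7960 and 8244 CPM with overexpression, and S100a4 551 and 543 against 183 and 201 CPM. Twist1 read 35.7 and 37.6 CPM in control against 54.8 and 50.6 CPM with overexpression, and Zeb1 61.5 and 61.2 against 70.9 and 67.1 CPM. Of 6 luminal markers, Epcam and Krt19 were at 0 in every library. A value of 0 allows up to 0.138 to 0.189 CPM (3 reads, counting error only). Cdh1 read at most 0.092 CPM. The luminal sum, nearly all Krt8 and Krt18, was 850 and 895 CPM in control against 607 and 607 CPM with overexpression. Erbb3 went the other way, with 0.980 and 2.02 CPM in control against 6.11 and 4.70 CPM with overexpression. The summed level of 4 basal markers lay between 0.343 and 0.441 CPM. Markers of immune and endothelial cells were scarce. The summed level of 7 immune markers lay between 0.154 and 0.375 CPM with 4 of them at 0 throughout. That of 4 endothelial markers lay between 0.368 and 1.19 CPM. Among the adipocyte markers Adipoq and Lep were at 0. Fabp4, of the same list, read 34.9 to 38.6 CPM in control and 83.1 to 83.3 CPM with overexpression. Summed fibroblast and pericyte markers, nearly all Pdgfra, read 200 and 207 CPM in control against 133 and 136 CPM with overexpression; the part of these shifts, and of depth and the mitochondrial share, in the results below was not tested.

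The 46 listed mitotic genes were mostly higher in the cells overexpressing Mtss1, by modest amounts. Of the 46 genes, all of which passed the expression filter, 32 were higher, 5 were lower and 9 did not pass the test (limma on log2(CPM + 1), Benjamini-Hochberg adjusted p under 0.05). Over all 12510 genes tested, 31.9% were called higher and 34.2% lower, against 69.6% and 10.9% of the 46 genes. The 46 were chosen with earlier results of these data known, so these shares, like those by role below, describe the list. Their excess was not tested. The median log2 fold change was 0.27 over the 46 genes and -0.01 over all genes tested, and the extremes were 0.72 for Cdc20 and -0.34 for Ndc80. The rise did not extend to the 132 other mitotic and regulatory genes described below. Of these 132, 44 were called higher (33.3%) and 43 lower (32.6%), with a median log2 fold change of 0.003. Control and overexpression libraries were fully separated for 41 of the 46 genes (89.1%), as for 81.6% of all genes tested. Of these, 35 were higher and 6 lower, where 39.7% and 41.9% of all genes tested were separated in those directions. Between 27 and 31 genes were called higher when any 1 library was left out. For the lower genes, 1 was called without control 2, 3 without overexpression 1 and 2 without overexpression 2, and Ndc80 was the lower gene that passed under all 13 alternatives tried. In bulk RNA a larger share of cells in mitosis and more of each transcript per cell cannot be told apart.

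**Figure D1:**
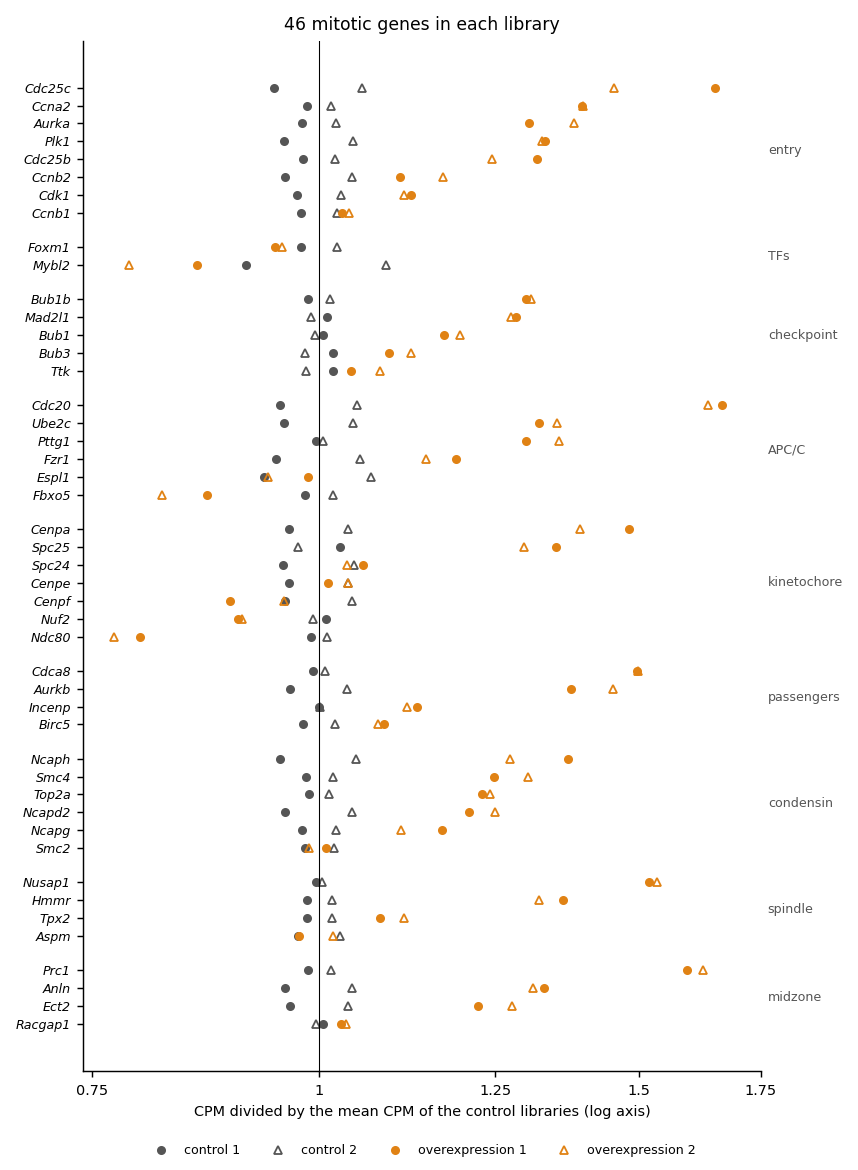
CPM of each of the 46 genes in each of the 4 libraries, divided by the mean of the control libraries (log axis; grey, control 1 and 2; orange, overexpression 1 and 2; genes ordered by role and by fitted change). The orange symbols lie to the right of the grey ones for 35 genes, to the left for 6, and overlap them for 5.

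**Figure D2:**
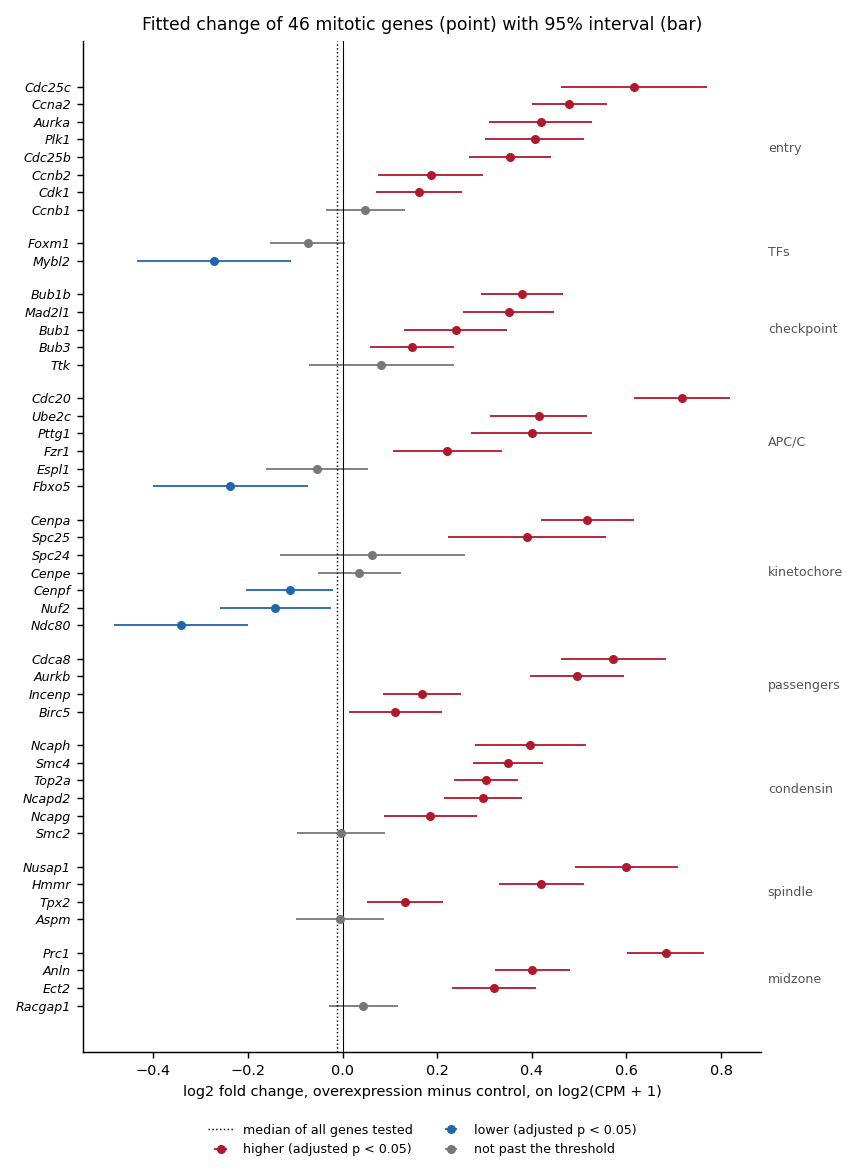
Fitted log2 fold change, overexpression minus control, on log2(CPM + 1) (points) with its 95% interval (bars), coloured by call; the dotted line is the median of all genes tested, -0.01. Of the intervals, 32 red ones lie above 0 and 5 blue ones below it; the kinetochore group holds 3 of the 5.

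RNA of Mybl2 and Foxm1 did not rise with that of most of the 46 genes, and the activity of their proteins was not measured. Mybl2, which encodes B-Myb, read 36.0 and 42.9 CPM in control against 33.8 and 31.0 CPM with overexpression, so the libraries did not overlap and the control pair was the more spread. Its log2 fold change of -0.27 ± 0.08 (SE) passed the test (limma adjusted p = 0.0044), but not without control 2 (adjusted p = 0.17) or without overexpression 2 (0.050), nor with no filter on low genes (0.070). Foxm1 read 199 and 209 CPM in control against 193 and 195 CPM with overexpression. The overexpression libraries were again the lower pair, but its change of -0.07 did not pass (limma adjusted p = 0.093, 95% interval -0.15 to 0.01). Among 18 genes for MuvB subunits, E2F factors and pocket proteins, 6 were higher, 5 lower and 7 did not pass, shares of 33.3% and 27.8% that are close to those of all genes tested (31.9% and 34.2%). Single genes of the list are given as values. Lin37, a MuvB subunit gene, went from 10.4 to 16.7 CPM, a rise of 0.63 on the log2 scale, and the E2F genes E2f5 (0.57) and E2f7 (0.43) rose too, the latter encoding an atypical repressor. Rbl1, the gene of the pocket protein p107, fell from 46.4 to 29.8 CPM (-0.62), E2f2 fell by 0.56 and the MuvB subunit gene Lin9 by 0.43 on the log2 scale.

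Promoters are shown as a description of the listed genes, and their part in the changes was not tested. RefSeq promoter windows (GRCm38.p6, 250 bases before to 50 after a start) were matched by symbol for 38 of the 46 genes. The cell cycle genes homology region (CHR), the element through which MuvB binds mitotic promoters, was searched as its cores TTTGAA and TTCGAA, and the box bound by NF-Y as CCAAT, each on both strands; TTCGAA reads the same on both, and the motifs do not contain each other. A CHR core was present in 28 of the 38 genes (73.7%) against 21.7% of all 27025 genes with a window, and CCAAT in 29 (76.3%) against 41.1%. Both stood in the same window for 26 of them (68.4%) and for 8.61% of all genes. The 46 genes were listed by mitotic role, with earlier results of these data known, and the CHR is an element of mitotic promoters. This excess therefore describes the list and not the change with overexpression. The 27025 genes also include genes that were not tested here. By call, the cores were found in 20 of 26 higher, 3 of 5 lower and 5 of 7 genes that did not pass. The following stretches run 5′ to 3′ on the gene's strand from 120 bases before the start to 20 bases into the transcript, with CHR cores and CCAAT in capitals (TTCAAA and ATTGG where they lie on the other strand). The first 5 belong to genes that rose, the next pair to genes that did not pass, and the last to a gene that fell.
Cdc20: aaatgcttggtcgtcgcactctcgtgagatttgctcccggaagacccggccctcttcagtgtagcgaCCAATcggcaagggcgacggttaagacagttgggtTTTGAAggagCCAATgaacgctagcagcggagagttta
Prc1: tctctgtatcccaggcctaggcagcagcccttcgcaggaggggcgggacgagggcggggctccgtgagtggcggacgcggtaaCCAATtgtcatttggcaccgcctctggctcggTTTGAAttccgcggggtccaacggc
Cdca8: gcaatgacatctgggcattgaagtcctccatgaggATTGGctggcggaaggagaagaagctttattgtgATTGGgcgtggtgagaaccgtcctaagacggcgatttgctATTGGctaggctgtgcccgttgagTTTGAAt
Cdk1: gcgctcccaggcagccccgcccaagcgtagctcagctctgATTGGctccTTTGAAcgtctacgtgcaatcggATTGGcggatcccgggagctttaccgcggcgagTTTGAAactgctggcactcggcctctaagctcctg
Ube2c: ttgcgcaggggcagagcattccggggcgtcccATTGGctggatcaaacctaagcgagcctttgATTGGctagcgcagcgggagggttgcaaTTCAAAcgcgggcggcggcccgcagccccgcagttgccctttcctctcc
Ccnb1: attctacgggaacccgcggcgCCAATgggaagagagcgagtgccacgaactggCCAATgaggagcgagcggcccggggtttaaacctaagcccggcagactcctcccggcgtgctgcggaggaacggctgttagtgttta
Racgap1: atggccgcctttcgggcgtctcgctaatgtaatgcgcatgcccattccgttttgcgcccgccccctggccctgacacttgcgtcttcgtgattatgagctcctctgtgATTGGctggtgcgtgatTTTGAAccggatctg
Fbxo5: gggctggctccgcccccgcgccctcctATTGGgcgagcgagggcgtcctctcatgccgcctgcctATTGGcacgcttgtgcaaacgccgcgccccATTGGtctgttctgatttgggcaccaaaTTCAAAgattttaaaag
They lie at chr4:118437324-118437463 (Cdc20, minus strand), chr7:80294331-80294470 (Prc1, plus), chr4:124936898-124937037 (Cdca8, minus), chr10:69352893-69353032 (Cdk1, minus), chr2:164769809-164769948 (Ube2c, plus), chr13:100786467-100786606 (Ccnb1, minus), chr15:99651637-99651776 (Racgap1, minus) and chr10:5805446-5805585 (Fbxo5, minus). In the Cdc20 window a CHR core began 18 bases before the start, between CCAAT boxes that began 53 and 8 bases before it. Cdk1 held a pair of CHR cores, 71 and 15 bases before the start, and Fbxo5 had its core 3 bases after the start with CCAAT boxes 93, 55 and 25 bases before. The Ccnb1 window had CCAAT boxes 99 and 67 bases before the start and neither CHR core. A match is a description of the letters and shows no binding in these cells.

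Genes for the mitotic entry kinases, cyclins and phosphatases were higher, apart from cyclin B1. Of 8, 7 rose (87.5%, against 31.9% of all genes tested) and 1 did not pass. The libraries of the 2 groups did not overlap for any of the 8, as was so for 81.6% of all genes tested. Cdc25c, whose phosphatase activates cyclin-dependent kinase 1, read 28.7 and 32.1 CPM in control against 50.2 and 44.2 CPM with overexpression. That was the largest rise of the group, 1.55-fold, from 30.4 ± 2.42 to 47.2 ± 4.30 CPM (SD, n = 2; log2 fold change 0.62 ± 0.07, limma adjusted p = 1.9e-07). Ccna2, the gene of cyclin A2, read 155 and 160 CPM against 220 and 220 CPM. The overexpression pair was nearly identical, and the log2 fold change was 0.48 ± 0.04 (limma adjusted p = 2.2e-10). Aurka, whose kinase matures the centrosomes, read 57.9 and 60.4 CPM in control against 77.1 and 81.7 CPM with overexpression (log2 fold change 0.42 ± 0.05, limma adjusted p = 3.2e-07). Plk1, the Polo-like kinase gene (0.41), and Cdc25b, the phosphatase gene that acts first at the centrosome (0.35), rose by similar amounts.

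Cdk1 itself rose less. It read 108 and 114 CPM in control against 124 and 123 CPM with overexpression, a log2 fold change of 0.16 ± 0.04 (limma adjusted p = 0.0027) that did not pass without control 1 (0.12, adjusted p = 0.059). The B-type cyclin genes differed from Ccna2 in size. Ccnb2 (66.1 and 72.0 against 76.5 and 80.8 CPM) rose by 0.19, and lost the call without control 1 (adjusted p = 0.094) and without overexpression 2 (0.051). Ccnb1 read 152 and 159 CPM in control against 160 and 162 CPM with overexpression. The difference between the group means was smaller than the gap between the control libraries, and its change of 0.05 did not pass (limma adjusted p = 0.30, 95% interval -0.04 to 0.13). Within a library the ratio of Ccna2 to Ccnb1 CPM was 1.02 and 1.01 in control and 1.37 and 1.36 with overexpression, so both overexpression libraries stood above both controls. This and the ratios below pair genes whose changes differ, so they restate those changes and add no separate support. They are descriptions and were not tested.

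Among other regulators of entry and exit, 5 of 17 rose, 5 fell and 7 did not pass, 29.4% each way and so near the shares of all genes tested (31.9% higher, 34.2% lower). Pkmyt1, whose membrane-bound kinase inhibits cyclin-dependent kinase 1, fell from 27.8 to 18.0 CPM (log2 fold change -0.60 ± 0.08, limma adjusted p = 1.5e-06), while Wee1, the gene of the nuclear inhibitory kinase, rose from 32.5 to 39.0 CPM (0.26 ± 0.07, adjusted p = 0.0018). Arpp19 and Ensa encode related inhibitors of protein phosphatase 2A that act under the Greatwall kinase. They moved in opposite directions, Arpp19 from 68.3 to 46.4 CPM (-0.55) and Ensa from 129 to 168 CPM (0.38). Cks2, which encodes a small subunit of the kinase complex, rose by 0.34, and Aurkaip1 fell by 0.24 on the log2 scale.

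Spindle checkpoint genes rose in 4 of 5 cases (80.0%, against 31.9% of all genes tested). Bub1b, the gene of BubR1, a subunit of the complex that inhibits the APC/C, read 106 and 109 CPM in control against 140 and 141 CPM with overexpression (log2 fold change 0.38 ± 0.04, limma adjusted p = 4.6e-08). Mad2l1, whose product is loaded onto Cdc20 by the checkpoint, read 77.6 and 76.1 CPM against 98.6 and 98.0 CPM (0.35 ± 0.05, adjusted p = 6.9e-07). The overexpression libraries of both genes stood above the control pair, as for 39.7% of all genes tested. Bub1, a kinetochore kinase gene, rose by 0.24 (57.9 and 57.3 against 67.4 and 68.9 CPM). Bub3, the shared partner of Bub1 and BubR1, rose by 0.15, but not past the threshold without control 2 (0.12, adjusted p = 0.056). Ttk, the gene of the kinase Mps1 that starts the signal, read 29.0 and 28.1 CPM in control against 29.7 and 30.8 CPM with overexpression, and did not pass (0.08, limma adjusted p = 0.34, 95% interval -0.07 to 0.24).

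Of 11 further checkpoint genes, 3 were higher, 3 lower and 5 not past, 27.3% each way against 31.9% and 34.2% of all genes tested; without control 2 the higher count was 5. Kntc1, a subunit gene of the RZZ complex that brings dynein and the Mad proteins to kinetochores, fell from 103 to 53.6 CPM (log2 fold change -0.93 ± 0.05, limma adjusted p = 1.8e-13). Zwilch, a gene for a partner subunit of the same complex, rose by 0.14, a call lost without control 1 (adjusted p = 0.26) or overexpression 1 (0.18). Trip13, which encodes the ATPase that takes the checkpoint complex apart, fell by 0.44, and Mad1l1, the gene of the Mad2 receptor, by 0.30 on the log2 scale. Sgo2a (0.33), a shugoshin gene protecting centromeric cohesion, and Knl1 (0.27), the kinetochore scaffold to which the Bub proteins bind, rose.

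Among the activators, enzymes and substrates of the APC/C, Cdc20 showed the largest rise of all 46 genes. Cdc20 (ENSMUSG00000006398, chromosome 4, 118432901 to 118437352, mm10), the activator at the metaphase to anaphase transition, read 73.1 and 80.6 CPM in control against 128 and 126 CPM with overexpression. The mean went from 76.9 ± 5.27 to 127 ± 1.56 CPM (SD, n = 2), 1.65-fold, with a log2 fold change of 0.72 ± 0.05 (limma adjusted p = 1.6e-11). Ube2c, the ubiquitin-conjugating enzyme that starts chains for the APC/C, read 74.3 and 81.1 CPM against 103 and 105 CPM (0.41 ± 0.05), and Pttg1, the gene of securin, 37.4 and 37.7 CPM against 48.8 and 50.9 CPM (0.40 ± 0.06). These 3 genes were higher in both overexpression libraries by more than the libraries of a group differed. Over all genes tested, 39.7% had both overexpression libraries above both controls. Fzr1, which encodes the late mitotic and G1 activator Cdh1, rose by 0.22 but did not pass without control 1 (0.15, adjusted p = 0.055).

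Fbxo5 moved the other way. It encodes Emi1, which inhibits the APC/C before mitosis, and read 28.0 and 29.0 CPM in control against 24.7 and 23.3 CPM with overexpression (log2 fold change -0.24 ± 0.08, limma adjusted p = 0.011). The call was lost without control 2 (adjusted p = 0.074) and without overexpression 2 (0.068). The ratio of Cdc20 to Fbxo5 CPM was 2.61 and 2.78 in the control libraries and 5.18 and 5.39 in the overexpression libraries. Espl1, the gene of separase, which cleaves cohesin, read 117 and 134 CPM in control against 124 and 118 CPM with overexpression, so the groups overlapped. Its change of -0.05 did not pass (limma adjusted p = 0.37), was -0.15 and passed without control 1 (adjusted p = 0.016), and was 0.04 without control 2. Of 15 genes for the APC/C subunits and its elongating enzyme, 5 were higher, 5 lower and 5 did not pass, 33.3% each way and so near all genes tested (31.9% and 34.2%). Ube2s, the chain-elongating enzyme (132 to 172 CPM, 0.38), and the subunit genes Cdc16 (0.38) and Cdc23 (0.22) rose, and the subunit genes Anapc16 (43.7 to 29.1 CPM, -0.57), Anapc5 (-0.29) and Anapc4 (-0.25) fell.

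Kinetochore genes moved in both directions. Of 7, 2 rose, 3 fell and 2 did not pass, shares of 28.6% and 42.9% that lie near the 31.9% and 34.2% of all genes tested, with a median log2 fold change of 0.04. The 4-subunit Ndc80 complex, which binds microtubules at the outer kinetochore, held genes of either direction. Ndc80 (ENSMUSG00000024056, chromosome 17, 71496100 to 71526857) read 38.7 and 39.5 CPM in control against 31.2 and 30.2 CPM with overexpression (log2 fold change -0.34 ± 0.07, limma adjusted p = 0.00014). Its dimer partner Nuf2 read 55.3 and 54.4 CPM against 49.4 and 49.7 CPM, a smaller fall of 0.14 (limma adjusted p = 0.030) that was not past the threshold when any 1 library was left out (adjusted p of 0.064 to 0.14). Spc25, of the dimer that anchors the complex to the inner kinetochore, read 22.3 and 21.1 CPM against 29.3 and 28.1 CPM and rose (0.39 ± 0.08, adjusted p = 0.00021). Its partner Spc24, the lowest of the 46 genes in CPM, read 16.8 and 18.3 CPM against 18.5 and 18.2 CPM with overlapping groups (0.06, adjusted p = 0.58, 95% interval -0.13 to 0.26). The ratio of Spc25 to Ndc80 CPM was 0.575 and 0.534 in control and 0.939 and 0.933 with overexpression.

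Cenpa, the histone H3 variant that marks centromeres, read 89.7 and 96.7 CPM in control against 138 and 130 CPM with overexpression, 1.44-fold higher (log2 fold change 0.52 ± 0.05, limma adjusted p = 2.4e-09). Cenpf, a large kinetochore and nuclear matrix protein gene, read 181 and 196 CPM against 168 and 180 CPM, where the lower control and the higher overexpression library were nearly equal. Its fall of 0.11 (limma adjusted p = 0.031) was not past the threshold without control 2 (adjusted p = 0.40), without overexpression 1 (0.31) or with each library scaled to 1000000 (0.14). Cenpe, the kinesin gene of the kinetochore, read 150 and 162 CPM against 158 and 162 CPM, overlapping, and did not pass (0.04, adjusted p = 0.48, 95% interval -0.05 to 0.12). Of 24 further genes for the inner kinetochore and the loading of the centromeric histone, 5 rose, 10 fell and 9 did not pass, 20.8% and 41.7% against 31.9% and 34.2% of all genes tested. The subunit genes Cenpq (27.3 to 17.0 CPM, log2 fold change -0.65), Cenph (-0.43) and Cenpt (-0.41) fell most. Ska3, of a complex that tracks microtubule ends (0.46), the Mis12 complex gene Nsl1 (0.41) and Hjurp, the chaperone that deposits the Cenpa protein (340 to 438 CPM, 0.37), rose most.

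**Figure D3:**
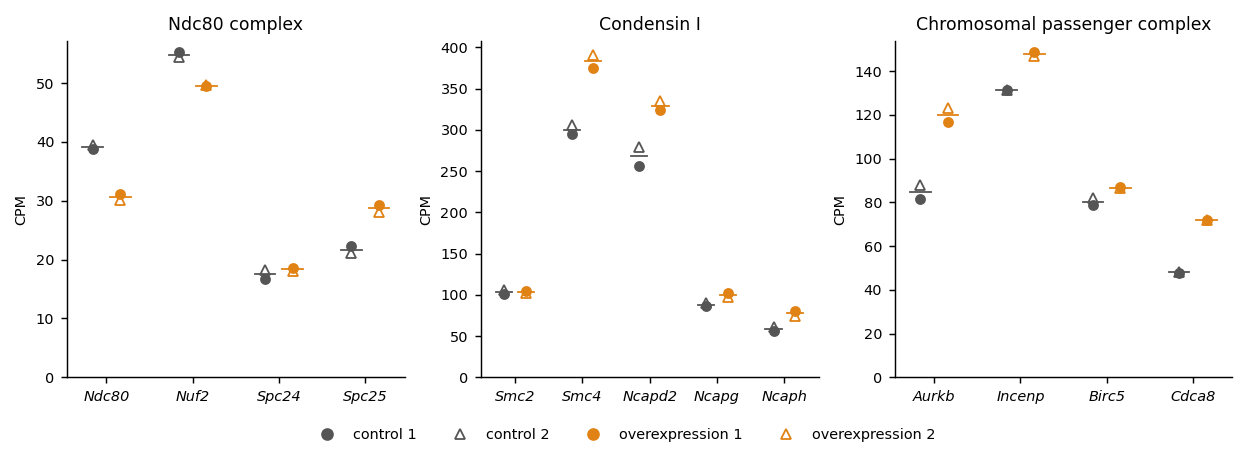
CPM of the subunits of 3 complexes in each library (grey, control 1 and 2; orange, overexpression 1 and 2; horizontal lines, group means; each axis starts at 0). Ndc80 and Nuf2 lie lower and Spc25 higher with overexpression, Smc2 is level while the other condensin I subunits are higher, and the chromosomal passenger genes are higher by 1.08- to 1.50-fold.

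The chromosomal passenger complex, which corrects faulty attachments and later guides cytokinesis, was higher in all 4 subunits, against 31.9% of all genes tested. Cdca8, the gene of borealin, read 47.7 and 48.4 CPM in control against 71.9 and 71.9 CPM with overexpression, 1.50-fold higher (log2 fold change 0.57 ± 0.05, limma adjusted p = 3.3e-09). Aurkb, its kinase, read 81.7 and 87.8 CPM against 117 and 123 CPM (0.49 ± 0.05, adjusted p = 5.9e-09), and the scaffold gene Incenp 131 and 132 CPM against 149 and 147 CPM (0.17 ± 0.04, adjusted p = 0.00088). The libraries of each gene did not overlap, as for 81.6% of all genes tested, and the fitted rises ranged from 0.11 to 0.57. Birc5, the gene of survivin, rose least, from 78.6 and 81.9 to 87.1 and 86.4 CPM (0.11, limma adjusted p = 0.044), and its call was lost when any 1 library was left out (adjusted p of 0.051 to 0.27) and with no filter (0.069). The Cdca8 to Birc5 ratio went from 0.606 and 0.591 to 0.825 and 0.832.

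Condensin I and topoisomerase II alpha, which compact and untangle chromosomes, were higher in 5 of 6 genes (83.3%, against 31.9% of all genes tested). The kleisin gene Ncaph read 55.9 and 61.5 CPM in control against 80.4 and 74.7 CPM with overexpression (log2 fold change 0.40 ± 0.06, limma adjusted p = 2.2e-06). The ATPase subunit gene Smc4 read 295 and 306 CPM against 375 and 391 CPM (0.35 ± 0.04, adjusted p = 1.5e-08), and Top2a, a target of anthracycline drugs, 656 and 672 CPM against 816 and 824 CPM (0.30 ± 0.03, adjusted p = 3.0e-08). In each the overexpression pair was above the control pair, as for 39.7% of all genes tested. The HEAT-repeat subunit genes Ncapd2 and Ncapg rose by 0.30 and 0.19. Smc2, which forms the ATPase dimer with Smc4, read 101 and 105 CPM in control against 104 and 102 CPM with overexpression, overlapping (limma adjusted p = 0.95, 95% interval -0.10 to 0.09). The Smc4 to Smc2 ratio was 2.91 and 2.90 in control and 3.60 and 3.83 with overexpression. Per kilobase of the longest principal transcript in GENCODE M21, control Smc4 (69.6 CPM per kilobase) stood above Ncapd2 (57.9), Ncapg (23.7), Ncaph (21.8) and Smc2 (19.1). Of 6 related genes, 4 were higher (66.7%) and 1 lower (16.7%), against 31.9% and 34.2% of all genes tested. The higher ones included the proliferation marker Mki67 (313 to 424 CPM, 0.44), the condensin II gene Ncapd3 (0.37) and Top2b (0.17). The condensin II gene Ncaph2 fell (340 to 278 CPM, -0.29).

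Spindle assembly genes rose in 3 of 4 cases (75.0%, against 31.9% of all genes tested). Nusap1, a microtubule-bundling protein gene, read 50.1 and 50.6 CPM in control against 76.5 and 77.2 CPM with overexpression, 1.53-fold higher (log2 fold change 0.60 ± 0.05, limma adjusted p = 1.0e-09). Hmmr, whose product works at spindle poles and also binds hyaluronan, read 97.3 and 100.4 CPM against 135 and 131 CPM (0.42 ± 0.04, adjusted p = 1.6e-08). For both genes the overexpression pair was above the control pair, as for 39.7% of all genes tested. Tpx2, the activator of Aurora A on spindles, read 167 and 172 CPM against 183 and 189 CPM and rose by 0.13 (adjusted p = 0.0050), though not past the threshold without control 1 (0.053). Aspm, a spindle pole protein gene, read 111 and 117 CPM in control against 111 and 116 CPM with overexpression, and did not pass (limma adjusted p = 0.92, 95% interval -0.10 to 0.09). Of 16 motor and pole genes, 9 rose (56.2%), 5 fell (31.2%) and 2 did not pass, against 31.9% and 34.2% of all genes tested. Ckap2l (68.2 to 99.0 CPM, 0.53), Ckap2 (59.6 to 86.5 CPM, 0.53) and the chromosome-arm kinesin gene Kif22 (0.36) rose most. The genes that fell most were Cdk5rap2 (-0.44) and Pcnt (-0.41), which encode scaffolds of the centrosome, and the spindle kinesin gene Kif15 (-0.35).

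At the midzone, Prc1 rose most. Prc1 (ENSMUSG00000038943, chromosome 7, 80294450 to 80316259), which bundles antiparallel microtubules between the separating chromosomes, read 129 and 133 CPM in control against 209 and 213 CPM with overexpression. The mean went from 131 ± 2.74 to 211 ± 3.08 CPM (SD, n = 2), 1.61-fold (log2 fold change 0.68 ± 0.04, limma adjusted p = 7.4e-13). Anln, which encodes anillin, the scaffold of the contractile ring, read 337 and 366 CPM against 467 and 461 CPM (0.40 ± 0.04), and Ect2, the exchange factor gene that activates RhoA at the furrow, 137 and 147 CPM against 174 and 181 CPM (0.32 ± 0.04). All 3 were higher in both overexpression libraries than in either control, as were 39.7% of all genes tested. Racgap1, the centralspindlin subunit that recruits Ect2, read 250.1 and 248 CPM against 256 and 257 CPM. The pairs did not overlap but its change of 0.04 did not pass (limma adjusted p = 0.28, 95% interval -0.03 to 0.12), while it was 0.08 and passed with each library scaled to 1000000 (adjusted p = 0.044). The Prc1 to Racgap1 ratio went from 0.516 and 0.537 to 0.816 and 0.828. Among 12 cytokinesis effectors, 7 rose (58.3%), 2 fell (16.7%) and 3 did not pass, against 31.9% and 34.2% of all genes tested. The citron kinase gene Cit (45.8 to 65.8 CPM, 0.51), Rhoa, the GTPase of the ring (273 to 374 CPM, 0.45), and Kif23, the kinesin partner of Racgap1 (0.32), rose most, and the septin gene Sept9 (-0.28) and the ESCRT-III gene Chmp4b (-0.24) fell.

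Across the 9 lists of other mitotic and regulatory genes, 44 of 132 were higher, 43 lower and 45 did not pass, close to the 31.9% higher and 34.2% lower of all genes tested, but the lists were unlike in their counts. The share higher was 66.7% for condensin II and the chromosome periphery (median log2 fold change 0.16), 58.3% for cytokinesis effectors (0.20) and 56.2% for spindle motors and poles (0.24). Cohesin genes, which hold sister chromatids together until anaphase, had 0 of 13 higher, 7 lower (53.8%, against 34.2% of all genes tested) and 6 not past. At an unadjusted limma p under 0.05, and with limma-voom, cohesin genes also had 0 higher and 7 lower. Stag1 fell from 53.8 to 25.0 CPM (log2 fold change -1.08 ± 0.07, limma adjusted p = 1.8e-11), the acetyltransferase gene Esco2 from 33.5 to 23.8 CPM (-0.48) and Smc1a from 163 to 117 CPM (-0.47). Genes of G1/S and DNA replication had 21 of 31 lower (67.7%), 3 higher (9.68%) and 7 not past, against 34.2% and 31.9% of all genes tested. Their median was -0.31, as against 0.27 for the 46 mitotic genes. Ccne1, the cyclin E1 gene, rose by 0.46, as did the ribonucleotide reductase gene Rrm1 (0.14) and Gins2 (0.18), but without control 1 the higher count was 1. Of those that fell, Mcm2 (288 to 167 CPM), Mcm3 and Fen1 changed most. Whether the lists differ from each other was not tested.

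**Figure D4:**
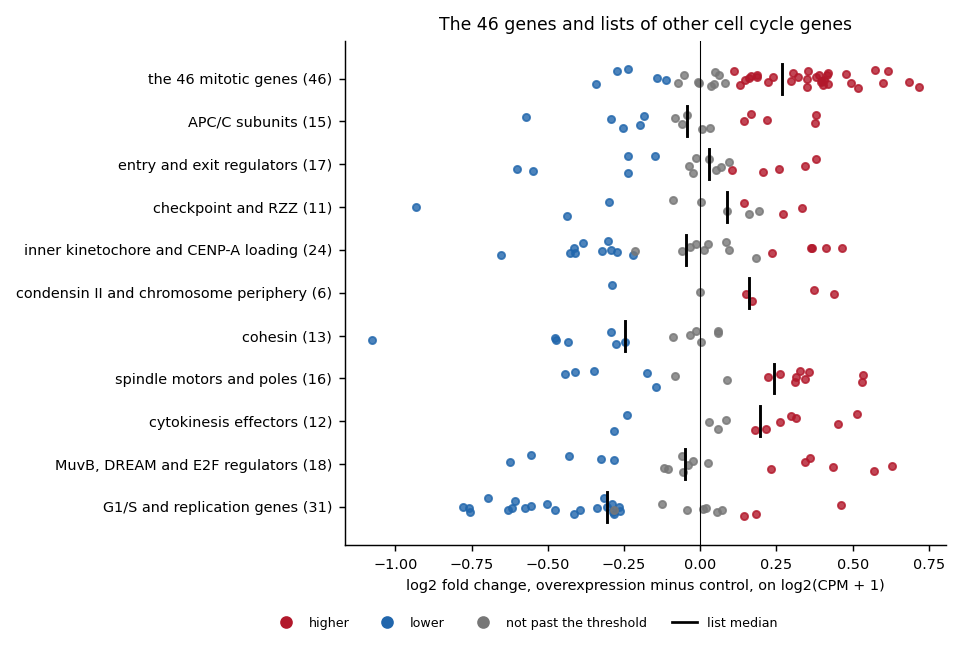
Fitted log2 fold change of the 46 genes and of 10 lists of other cell cycle genes (points, coloured by call; black bars, list medians; number of genes in parentheses). The medians are 0.27 for the 46 genes, -0.25 for cohesin and -0.31 for G1/S and replication genes.

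The lowest recovered count of any of the 46 genes was 294 reads (Spc24) and the highest 14612 (Top2a); 294 reads carry a counting error of 5.83%. Some genes share exon bases with a neighbour, and the labels do not tell whether counting used strand, so reads of such a pair cannot be told apart. Shared bases occur in 14 of the 46 genes, 7 of them with a neighbour at 10 CPM or more. These 7 are Ccna2, Cdc20, Cdca8, Fzr1, Ncapg, Nusap1 and Prc1, and all were called higher, as were 32 of the 46. Ncapg (87.8 to 99.9 CPM) shares 944 exon bases with Lcorl on the opposite strand, which went from 30.0 to 51.8 CPM. Prc1 shares 911 bases with Rccd1 (10.5 to 13.6 CPM), and Ccna2 shares 510 with Exosc9, which went the other way from Ccna2 (64.9 to 48.8 CPM). All 7 neighbours lie on the opposite strand, and the part of these overlaps in the values was not tested.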

How the data were processed

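RNA was sequenced in 2 control and 2 Mtss1-overexpressing Py8119 libraries. The submitters' processing notes list STAR, RSEM, FastQC 0.11.2 and the build mm10, with no settings. The deposited values are CPM, a unit read from the values (column sums 982877 to 1016225). Of the nonzero values, 79.6% to 80.5% were whole reads within 0.005 read, and 99.98% to 100.0% were hundredths of a read, so a count test was not the main one.

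Genes reaching 1 CPM in 2 or more libraries were tested with limma 3.58.1 in R 4.3.3 (mean-dependent prior) on log2(CPM + 1), which understates changes of low genes, with Benjamini-Hochberg adjustment over all 12510. Residual degrees of freedom were 2 and the prior added 20.0. Intervals are 95% limma intervals. Values are per library or mean ± SD (n = 2).

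The 46 genes, lists and tests were chosen with earlier results of these data known. By the naming rule, members that fell, did not pass or changed most in their group are given in full, and in each other list up to 3 genes per direction. The printed promoters were chosen after values were seen. Between libraries of a group the median chi-square was 2.02 (control) and 1.75 times (overexpression) its Poisson expectation, over genes with at least 50 reads. This spread exceeds counting error alone. No library was left out of the main test. Gene models were GENCODE M21 (mm10). The 13 alternatives were another model, 2 scalings, 2 filters, 2 pseudocounts, a stricter threshold, the replicate block and leaving out each library.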

Additional observations from a re-analysis of the deposited data

How the results depend on the processing

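The count of 32 higher genes stayed between 27 and 33 under all 13 alternatives (27 to 31 without 1 library). The count of 5 lower genes was 3 with each library scaled to 1000000, 3 with no filter and 2 at an adjusted p under 0.01, and ran from 1 to 5 without 1 library. The median log2 fold change of 0.27 was 0.31 with each library scaled to 1000000, which moved the median of all genes by 0.03, and ran from 0.24 to 0.31 without 1 library. Scaling to 1000000 multiplies all values of a library by the same factor, so it shifts nearly all log2 fold changes together. For the other alternatives the cause was not tested.

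Of the genes called higher, 26 of 32 kept their call under every alternative, and 1 of 5 called lower did. Sign changes occurred in 4 genes that had not passed. The log2 fold change of Smc2 (-0.0032) was 0.0084 with median-of-ratios scaling and 0.034 scaled to 1000000, and the log2 fold change of Aspm was 0.0059 and 0.032. Without 1 library, Smc2 ran from -0.029 to 0.023, Aspm from -0.044 to 0.033, Espl1 from -0.15 to 0.043 and Cenpe from -0.018 to 0.089.

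Libraries with the same number did not deviate together (correlation across genes -0.02), so the numbers were not taken to pair them. With the replicate block the counts were 32 higher and 5 lower with a median of 0.27, and no call among the 46 genes changed. With 2 libraries per group, changes as small as those of Birc5, Nuf2 and Cenpf lie at the limit of what the replicates can show.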
